A study of Homo sapiens with 11 samples.

Results

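The 10 genes described here encode inhibitors that the ERK pathway switches on against itself, together with 2 immediate-early genes commonly read with them: the MAP kinase phosphatases DUSP1, DUSP4, DUSP5 and DUSP6, the Sprouty genes SPRY2 and SPRY4, their relatives SPRED1 and SPRED2, and IER3 and PHLDA1. They were chosen by name, and every probe set annotated to exactly 1 of these symbols was used, which gave 25 probe sets of the 54675 on the array and 10 of 19775 genes. All 10 were measured on all 11 arrays. The cells were MDA-MB-231, an established human breast cancer line that is commonly used as a model without classical estrogen receptor alpha. RNA was read on Affymetrix HG-U133 Plus 2.0 arrays, where 1 to 6 probe sets report each of the genes. The E2-BSA group (2 arrays) received 1 µM of a conjugate of estradiol with bovine serum albumin, made to bind estrogen receptors on the outside of the cell. The E2-BSA+ICI and E2-BSA+G15 groups (1 array each) received it with 10 µM ICI, named in the labels only by that abbreviation, or with 10 µM G15, which blocks the membrane estrogen receptor GPER. The estradiol group (1 array) had 1 µM free hormone, and the ICI and G15 groups (1 array each) had 10 µM of the antagonist alone. The ethanol group (1 array, 0.1%) stood for the vehicle of estradiol, the BSA group (1 array, 1 µM) for the carrier protein, and the untreated control group had 2 arrays. All groups shared a 4 h preincubation in medium with 10% charcoal-stripped serum and a treatment time of 3 h. The labels do not say whether the duplicates were separate cultures, so the p-values below measure only the spread between these arrays, which may be technical.

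ERK is the last kinase of the RAS-RAF-MEK cascade, and in its active form it enters the nucleus and drives transcription of immediate-early genes. Several of these encode brakes on the same cascade: dual-specificity phosphatases remove the activating phosphates from MAP kinases, and Sprouty and SPRED proteins act upstream, where receptors hand the signal to RAS and RAF. In epithelial and breast cancer cells the transcripts of these genes are widely used as a readout of recent ERK activity, because they are short-lived and follow the kinase closely.

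The deposited values are log2 values centred per probe set, on a point that is not the median of these 11 arrays and that the labels do not state. A value therefore serves only to compare arrays and gives no absolute level. The line's own markers could for that reason not be checked for presence, and no level of a gene was set against that of another. The arrays fell apart on the 24 poly-A spike-in control probe sets, RNAs added during preparation: 3 arrays (estradiol, E2-BSA array 1 and control array 1) had mean values of 1.40 to 1.62, and the other 8 had values of -0.56 to 0.10. The labels give no batch for this split. The standard deviation over all probe sets was 0.46 to 0.47 in the set of 3 and 0.24 to 0.32 in the set of 8. The ethanol array stood apart on the hybridisation controls, at 0.77 against -0.28 to 0.21 in the other 10 arrays. Treatments were compared with limma in an additive fit over all 11 arrays that holds a term for the set, with Benjamini-Hochberg adjustment over 19775 genes and a threshold of 0.05. Single arrays were compared only within a set. For groups of 1 array the spread of the fit's residuals was taken to hold, and the number of arrays limits the precision. These residuals came from the duplicated groups and from departures of the ICI and G15 arrays, with and without E2-BSA, from additive terms.

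DUSP1, DUSP4 and DUSP5 are the inducible phosphatases of the nucleus, and they showed the smallest differences between the sets of arrays. DUSP1, which acts on p38 and JNK as well as ERK, had values of -0.21 in estradiol, -0.04 in E2-BSA array 1 and -0.11 in control array 1, and in the set of 8 it had a lowest value of -0.11, a median of 0.09 and a highest of 0.69. DUSP4, a nuclear phosphatase of ERK and JNK, lay between 0.02 and 0.07 in the set of 3 and had a lowest value of -0.30, a median of -0.02 and a highest of 0.13 in the set of 8. DUSP5, which is specific for ERK and holds it in the nucleus, had 0.23 in estradiol, 0.18 in E2-BSA array 1 and -0.02 in control array 1, against a lowest value of -0.38, a median of -0.08 and a highest of 0.60 in the set of 8. For all 3 genes the sets overlapped.

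The promoter of DUSP1 is shown because this gene had its highest value in the ethanol array, and those of DUSP6 and SPRY2 because their patterns over the arrays differed from it. The sequences are RefSeq's of build GRCh38.p14, the 250 bases before the annotated start of the gene, 5′ to 3′ on the gene's strand. DUSP1 lies at chr5:172771196-172771445, DUSP6 at chr12:89352502-89352751 and the first listed start of SPRY2 at chr13:80341127-80341376, all on the minus strand. Capitals mark the cAMP response element TGACGTCA, its core TGACG, the AP-1 site TGANTCA and the TATA box TATAAA, each searched on both strands.
DUSP1: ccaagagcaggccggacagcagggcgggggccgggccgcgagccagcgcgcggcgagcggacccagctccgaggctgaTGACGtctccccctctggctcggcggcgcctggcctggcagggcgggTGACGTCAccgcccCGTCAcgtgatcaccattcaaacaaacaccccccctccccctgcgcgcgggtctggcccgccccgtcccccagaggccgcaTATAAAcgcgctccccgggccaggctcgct
DUSP6: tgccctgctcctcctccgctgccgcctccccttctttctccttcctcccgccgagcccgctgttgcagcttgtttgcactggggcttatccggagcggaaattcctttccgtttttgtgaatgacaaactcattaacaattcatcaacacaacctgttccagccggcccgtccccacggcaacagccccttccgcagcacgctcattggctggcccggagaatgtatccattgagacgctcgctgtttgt
SPRY2: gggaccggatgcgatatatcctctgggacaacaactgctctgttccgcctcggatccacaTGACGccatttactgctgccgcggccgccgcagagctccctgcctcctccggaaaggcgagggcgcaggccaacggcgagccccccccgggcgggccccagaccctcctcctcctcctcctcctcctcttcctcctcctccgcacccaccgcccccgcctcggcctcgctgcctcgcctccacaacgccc
The DUSP1 window held 1 full cAMP response element, 4 cores (the full element is counted as 2 of them, 1 on each strand) and 1 TATA box. The SPRY2 window held 1 core and the DUSP6 window none of the motifs. Of 35116 promoter windows of this length, 1.65% held the full element, 21.2% the core, 6.57% the AP-1 site, 10.7% the TATA box and 0.72% the EGR site GCGTGGGCG, searched likewise, which none of the members' windows held. Among the 10 windows of the 7 members matched by symbol, the full element occurred in that of DUSP1 alone. Besides DUSP1, SPRY4 and SPRY2 had 1 window each with a core and SPRED2 had 1 with a TATA box, and no window held the AP-1 site. DUSP4, DUSP5 and IER3 were not among the matched genes. A match is a run of letters and not a shown binding site.

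DUSP6 is the cytoplasmic phosphatase specific for ERK and, like the Sprouty genes, it separated the sets. It had 0.60 in estradiol, 0.65 in E2-BSA array 1 and 0.66 in control array 1, against a lowest value of -1.11, a median of -0.23 and a highest of -0.02 in the set of 8. No value of the set of 3 reached into the range of the set of 8, and the same held with the set of 3 higher for 7 of the 10 members and for 13.5% of all genes. With the set of 3 lower it held for none of the members and for 16.3% of all genes. The 3 probe sets of DUSP6 did not move equally: the fitted difference between the sets was 1.72 ± 0.41 (SE) for 208893_s_at, 0.77 ± 0.13 for 208891_at and 0.18 ± 0.20 for 208892_s_at.

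SPRY2, which blocks signalling between growth factor receptors and RAS, had the widest separation of the members. It stood at 0.96 in estradiol, 1.34 in E2-BSA array 1 and 0.84 in control array 1, against a lowest value of -0.62, a median of -0.24 and a highest of 0.03 in the set of 8. SPRY4, a Sprouty protein that restrains the same step, had 0.70, 0.69 and 0.62 on the same 3 arrays, against a range of -0.35 to 0.00 with a median of -0.30. SPRED1, the partner of neurofibromin in switching off RAS, had 0.54, 0.47 and 0.36, against a range of -0.56 to 0.09 with a median of -0.23. SPRED2, its close relative, had 0.32, 0.35 and 0.31, against a range of -0.14 to 0.06 with a median of -0.05. These 4 genes are among the 7 without overlap between the sets. The probe sets of SPRED1 had unequal fitted differences between the sets, 1.22 ± 0.17 for 244439_at, 0.56 ± 0.13 for 235074_at and 0.28 ± 0.16 for 226837_at. Those of SPRED2 were 1.01 ± 0.13 for 212458_at, 0.33 ± 0.17 for 212466_at and 0.01 ± 0.13 for 214026_s_at.

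IER3, an immediate-early gene whose protein prolongs ERK signalling by opposing its dephosphorylation, had 0.72 in estradiol, 0.88 in E2-BSA array 1 and 0.61 in control array 1, against a lowest value of -0.56, a median of -0.22 and a highest of 0.03 in the set of 8. PHLDA1, a pleckstrin-homology protein induced by growth factors, had 0.62, 0.64 and 0.64 on the same 3 arrays, against a range of -0.56 to -0.06 with a median of -0.17. Both genes are also among those 7. All 6 PHLDA1 probe sets had a fitted difference above 0, with values of 0.25 ± 0.14 (217997_at) to 1.73 ± 0.16 (217998_at).

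**Figure D1:**
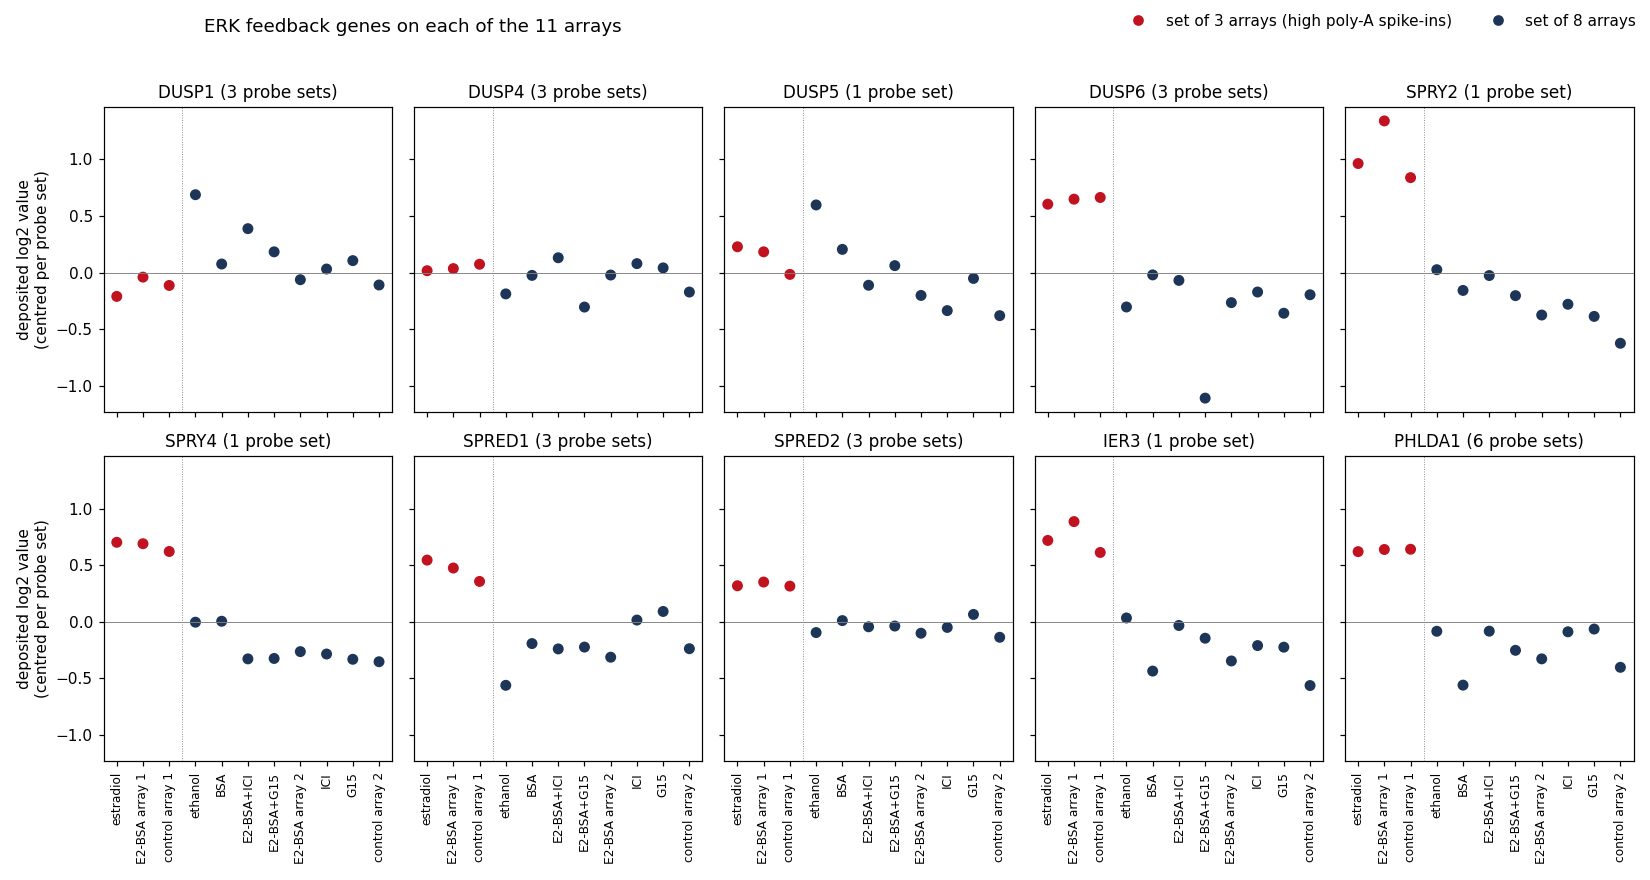
Each panel plots 1 gene, with the 11 arrays on the horizontal axis and the deposited log2 value, centred per probe set and averaged over the gene's probe sets, on the vertical axis. Points left of the dotted line are the set of 3 arrays and points right of it the set of 8. SPRY2, SPRY4, SPRED1, SPRED2, IER3, PHLDA1 and DUSP6 are higher in every array of the set of 3, as 13.5% of all genes are, while DUSP1 and DUSP5 have their highest points in the ethanol array.

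The set of 3 was set against the set of 8 in the duplicated groups, a comparison chosen after the data were seen, since only the control and E2-BSA arrays have a member in each set. SPRY2 was higher in the set of 3 by 1.46 between the control arrays and by 1.72 between the E2-BSA arrays, and IER3 by 1.18 and 1.23. In the limma fit 8 of the 10 genes passed the threshold, all higher, where 24.1% of all genes passed in either direction. The fitted differences were 1.59 ± 0.12 for SPRY2 (adjusted p = 0.000371), 1.20 ± 0.10 for IER3 (0.000453), 1.0 ± 0.11 for PHLDA1 (0.000832) and 0.96 ± 0.10 for SPRY4 (0.000757). They were 0.89 ± 0.19 for DUSP6 (adjusted p = 0.014), 0.69 ± 0.13 for SPRED1 (0.00711), 0.45 ± 0.10 for SPRED2 (0.0177) and 0.37 ± 0.10 for DUSP5 (0.030). DUSP4, at 0.15 ± 0.13, and DUSP1, at 0.01 ± 0.12, did not pass. In both duplicated pairs 6 of the 10 genes were higher by more than 0.5, as were 7.88% of all genes, and the median difference was 0.79 over the members and 0.07 over all genes. Without control array 2 or without E2-BSA array 2 only 4 of the 10 passed, without E2-BSA array 1 there were 5, and without control array 1 there were 7. Calls over all 19775 genes fell as well, from 4772 to 1729 without control array 2 and to 1332 without E2-BSA array 2. They fell to 3610 without E2-BSA array 1 and to 3211 without control array 1.

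**Figure D2:**
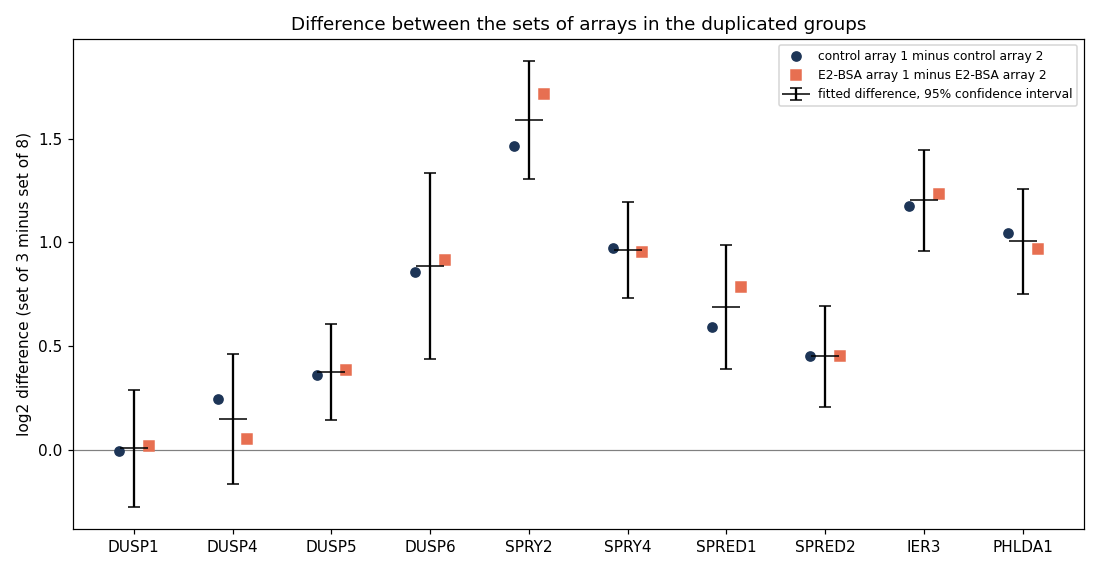
The log2 difference between the set of 3 and the set of 8 is plotted for each gene, as control array 1 minus control array 2 (circles), E2-BSA array 1 minus E2-BSA array 2 (squares) and the fitted difference with its 95% confidence interval (bars). SPRY2 is highest at 1.59, and the intervals of DUSP1 and DUSP4 include 0.

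The other genes of the pathway moved between the sets in both directions. The counts below stand beside 24.1% of all genes that passed in either direction. Of 28 listed cascade components 22 were measured, and the others were not analysed here. The 22 had 5 that passed higher, the kinases RPS6KA3 (1.83), RPS6KA2 (1.24), MAP2K1 (0.89) and ARAF (0.77) and the transcription factor ELK1 (0.79), and 2 that passed lower, HRAS (-0.55) and the kinase RPS6KA1 (-0.59). Among 21 relatives and other feedback inhibitors 5 were higher, DUSP10 (1.62), the EGFR inhibitor ERRFI1 (1.27), DUSP7 (0.45), IER5 (0.43) and LRIG1 (0.41), and 2 were lower, DUSP14 (-0.34) and DUSP3 (-0.65). Of 21 measured genes reported as ERK's transcriptional output 8 were higher, with FOS (1.69), MYC (1.29) and MAFF (1.01) ahead of ETV1, LIF, EPHA4, PLAUR and EPHA2, and GPR3 (-0.47) and SLC20A1 (-0.75) were lower. The median differences of the 3 lists were 0.02, 0.08 and -0.01, against 0.07 over all genes and 0.79 over the 10 members. Control and E2-BSA arrays lay in both sets, the estradiol array only in the set of 3, and all other treatments only in the set of 8. What sets the arrays apart was not tested. RPS6KA3, RPS6KA2, MAP2K1, ERRFI1, FOS, MYC, MAFF, ELK1, ETV1 and LIF passed with each duplicated array left out in turn. The other 14 of the 24 lost the call without at least 1 of these arrays, 13 of them without control array 2. Without control array 2 the calls over all genes also fell, from 4772 to 1729.

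Within the set of 8, control array 2 was the lowest array for 6 of the 10 genes, DUSP1, DUSP5, SPRY2, SPRY4, SPRED2 and IER3, as it was for 26.8% of all genes. With each array's median subtracted it was the lowest for 1 of the 10 and for 11.4% of all genes. The standard deviation expected of a difference between 2 arrays, from the residuals of the fit, was 0.14 for DUSP5 and 0.27 for DUSP6. The 8 arrays were also ordered from highest to lowest for each gene. Neighbours in such an order lie close by construction, so small gaps do not show that a gene was flat. DUSP4, SPRED2 and IER3 had no gap above that standard deviation, and the other 7 genes had 1 or 2 of 7. IER3 still spanned 0.60 over the 8 arrays, where its standard deviation of a difference was 0.15. The widest gaps were 0.75 for DUSP6, between G15 and the lower E2-BSA+G15 array, 0.39 for DUSP5, between ethanol and BSA, and 0.30 for DUSP1, between ethanol and E2-BSA+ICI.

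In the ethanol array the ERK-specific DUSP5 and the stress-responsive DUSP1 stood above every other array of the set of 8, and so did SPRY2 and IER3. Ethanol had the highest value for these 4 of the 10 genes, as it had for 7.67% of all genes, and the lowest value for SPRED1. DUSP5 had 0.60 with ethanol, against -0.02 and -0.38 in the control arrays, of which the second shares its set. The fitted difference from control was 0.98 ± 0.13 for DUSP5 (SE, 95% confidence interval 0.68 to 1.27, adjusted p = 0.0555). DUSP1 had 0.69 with ethanol, against -0.11 in both control arrays, a fitted difference of 0.84 ± 0.16 (adjusted p = 0.231). SPRY2 differed by 0.67 ± 0.16 (adjusted p = 0.371), IER3 by 0.58 ± 0.13 (0.366), SPRY4 by 0.32 ± 0.13 and SPRED1 by -0.35 ± 0.16. No member passed the threshold, and 0.086% of all genes did. At an unadjusted p under 0.05 there were 5 of the 10 members and 6.35% of all genes, and the median difference was 0.29 over the members and 0.02 over all genes.

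The 3 probe sets of DUSP1 did not share the ethanol value. Probe set 201041_s_at had 1.97 in the ethanol array, whereas the other two had 0.06 and 0.03. Measured from control array 2 it differed by 1.97, and the others by 0.16 and 0.26. With the median over probe sets in place of the mean, the fitted difference of DUSP1 was 0.23. DUSP5, SPRY2, SPRY4 and IER3 were each read by 1 probe set, so no second reading exists for them. For SPRED1, 226837_at and 235074_at had -0.82 and -0.79 with ethanol, against -0.24 and -0.21 in control array 2, and 244439_at had -0.08 against -0.26. SPRY2 and IER3 differed from control by -0.12 and -0.02 when the term for the sets was left out, because control array 1 then counts equally with control array 2. The high hybridisation controls lay in the only ethanol array, so their part in these differences cannot be told apart from that of ethanol.

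Of the related lists, 2 genes passed with ethanol, both higher and both of ERK's transcriptional output: FOS differed by 3.04 ± 0.25 (adjusted p = 0.0103) and EGR1, a zinc-finger transcription factor, by 2.91 ± 0.17 (0.00346). Without control array 2 or without E2-BSA array 2 neither passed, as no gene did. Of the 22 cascade components and of the 21 relatives of the members none passed, with 1 and 7 at an unadjusted p under 0.05.

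**Figure D3:**
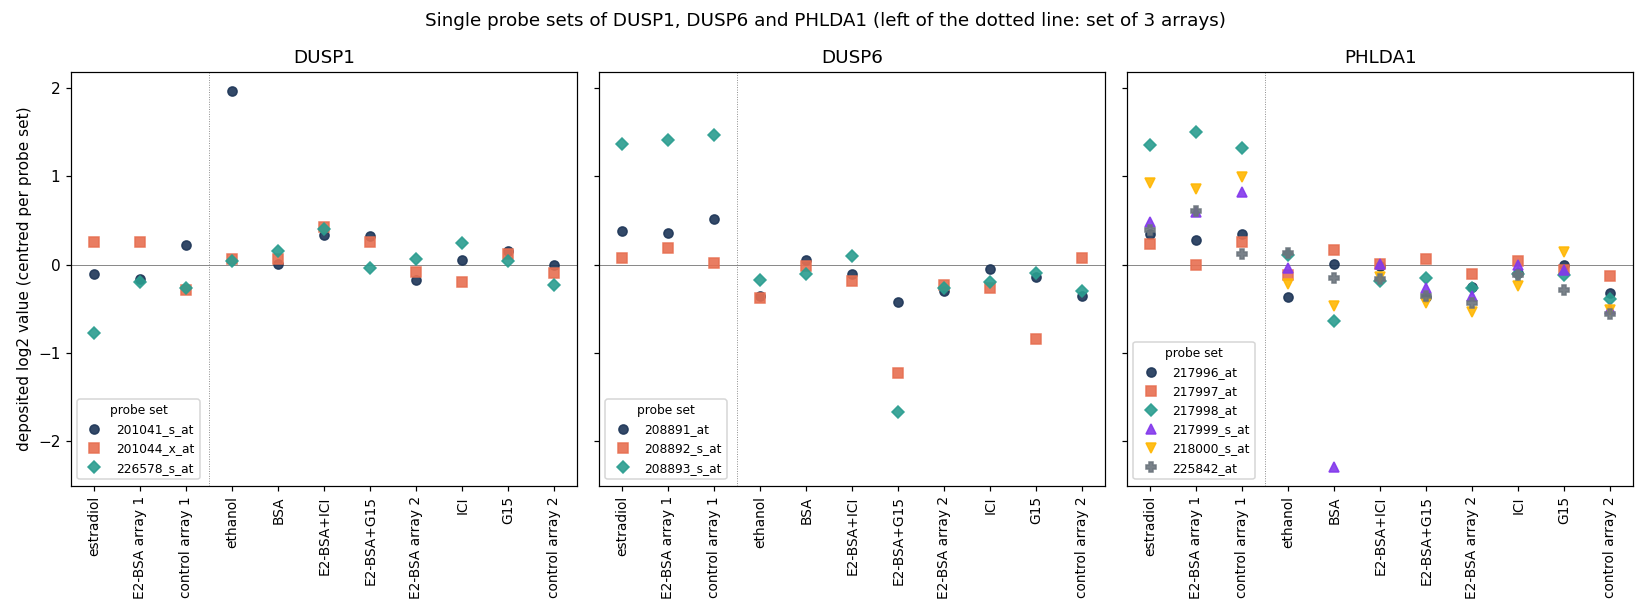
Single probe sets of DUSP1, DUSP6 and PHLDA1 are plotted by array, with the deposited log2 value, centred per probe set, on the vertical axis. In each panel at least 1 array rests on a part of the probe sets: 201041_s_at of DUSP1 at 1.97 with ethanol, 208893_s_at and 208892_s_at of DUSP6 at -1.67 and -1.23 with E2-BSA+G15, and 217999_s_at of PHLDA1 at -2.29 with BSA.

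With the carrier protein BSA, DUSP5 was again the member with the largest difference. It had 0.21 with BSA, against -0.02 and -0.38 in the control arrays, a fitted difference of 0.59 ± 0.13 (adjusted p = 0.181). SPRY2 differed from control by 0.49 ± 0.16 (adjusted p = 0.249) and SPRY4 by 0.33 ± 0.13 (0.286). No member passed, where 0.354% of all genes did, and 3 of the 10 members against 16.1% of all genes had an unadjusted p under 0.05. The median difference was 0.12 over the members and 0.17 over all genes, so the array as a whole lay above the controls. The BSA array also had the highest 3′ minus 5′ difference of the ACTB control probe sets, 0.35 against -0.31 to 0.20 in the other 10 arrays. For GAPDH the BSA array had 0.05, and the ethanol array was highest at 0.08. As the values are centred per probe set, these differences only compare arrays. Their part in the BSA values, the PHLDA1 probe set included, was not tested. With array medians subtracted 4 of the 10 members lay above 0, against 9 without. LIF, a cytokine of the interleukin-6 family, was the 1 gene of the related lists that passed, at 1.0 ± 0.13 (adjusted p = 0.028). It no longer passed without control array 2, without E2-BSA array 2, without the E2-BSA+ICI array, without the set term or with group means.

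For PHLDA1 a single probe set stood apart in the BSA array. Probe set 217999_s_at had -2.29, while the other 5 probe sets of the gene had -0.64 to 0.17. In a fit over all probe sets, in which 0.439% passed, this probe set was lower with BSA than in the controls by -1.89 ± 0.19 (adjusted p = 0.0157). With E2-BSA against BSA, where 0.368% of probe sets passed, it was higher by 1.82 (adjusted p = 0.0207). Both comparisons rest on the same BSA array, and the E2-BSA term of this probe set was -0.07 ± 0.10. At the level of the gene PHLDA1 differed by -0.21 ± 0.14 with BSA (adjusted p = 0.456), and its 5 other probe sets differed from control array 2 by -0.25 to 0.41.

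E2-BSA was compared with its absence in 4 matched pairs of arrays, alone (2 pairs), with ICI and with G15. SPRY2 had 1.34 in E2-BSA array 1, against 0.84 in control array 1, and -0.37 in E2-BSA array 2, against -0.62 in control array 2. It had -0.03 with E2-BSA+ICI, against -0.28 with ICI, and -0.20 with E2-BSA+G15, against -0.39 with G15. SPRY2 was thus higher with E2-BSA in every pair, by 0.50, 0.25, 0.25 and 0.18. DUSP5 was also higher in all 4, by 0.20, 0.18, 0.22 and 0.11, as were IER3, by 0.27, 0.22, 0.18 and 0.08, and DUSP1, by 0.07, 0.05, 0.36 and 0.08. These were 4 of the 10 members, where 5.14% of all genes were higher in all 4 pairs. No member was lower in all 4, as 8.26% of all genes were. A smallest difference of the 4 at least as large as that of SPRY2 occurred in 28 genes, or 0.142%. The same share was 0.531% for DUSP5, 1.03% for IER3 and 2.11% for DUSP1. These shares were taken only for the 4 members already found higher in all 4 pairs, from the same differences. They are a description and not a test.

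None of these differences passed in the fit, in which 0% of all genes did. The E2-BSA term was 0.30 ± 0.09 for SPRY2, 0.18 ± 0.07 for DUSP5, 0.19 ± 0.07 for IER3 and 0.14 ± 0.09 for DUSP1, each with an adjusted p of 0.903. SPRY2, DUSP5 and IER3 had an unadjusted p under 0.05, which 4.69% of all genes had. The other members lay between -0.18 ± 0.14 (DUSP6) and 0.03 ± 0.07 (SPRY4). DUSP6 was at -0.01, -0.07 and 0.10 in the first 3 pairs and at -0.75 in the pair with G15, so that without the E2-BSA+G15 array its term was 0.01. No gene of the related lists passed.

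**Figure D4:**
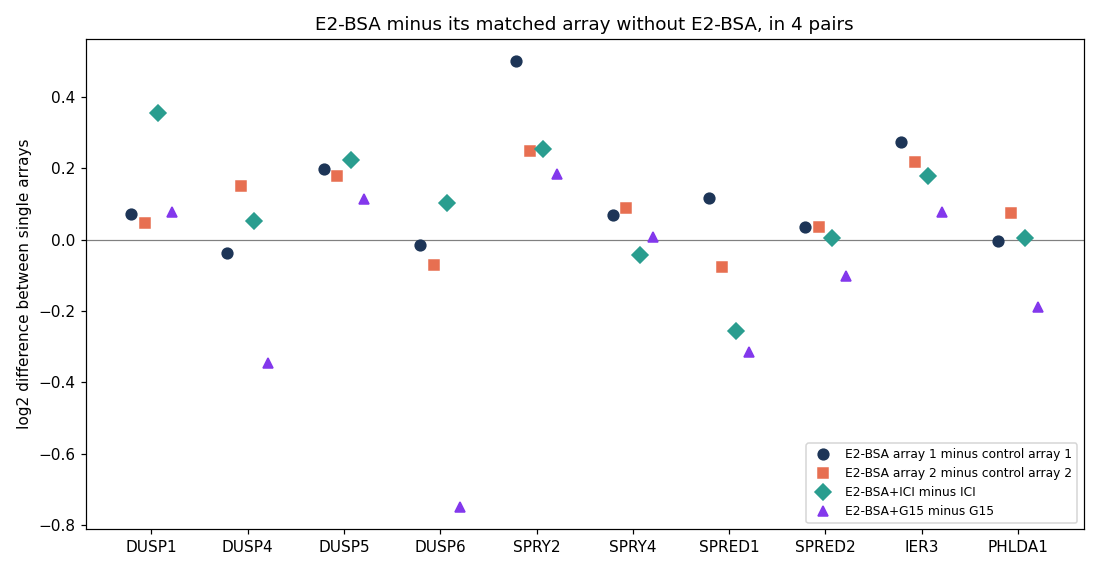
The log2 difference between an array with E2-BSA and its matched array without it is plotted for each gene, with 1 symbol for each of the 4 pairs. All 4 symbols lie above 0 for DUSP1, DUSP5, SPRY2 and IER3, and the pair with G15 lies at -0.75 for DUSP6.

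E2-BSA was also set against its carrier, and the values were lower with E2-BSA than with BSA for 8 of the 10 members and for most genes, without passing the threshold for any member. DUSP5 had 0.18 and -0.20 with E2-BSA, against 0.21 with BSA, a fitted difference of -0.41 ± 0.13 (adjusted p = 0.221). SPRY4 differed by -0.30 ± 0.13 (adjusted p = 0.279) and SPRY2 by -0.19 ± 0.16 (0.503). No member passed, where 0.308% of all genes did, and 2 of 10 members against 17.8% of all genes had an unadjusted p under 0.05. The median difference was -0.14 over the members and -0.19 over all genes. This comparison rests on the same BSA array as the comparison of BSA with control. With array medians subtracted 6 of the 10 members lay above 0, against 2 without. LIF, which was higher with BSA, was lower with E2-BSA than with BSA by -0.93 ± 0.13 (adjusted p = 0.0454), a call that held in 2 of 14 alternatives, with the median over probe sets and without probe sets ending in _x_at or _s_at.

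Free estradiol was read on 1 array, in the set of 3. DUSP5 had 0.23 with estradiol, against -0.02 in control array 1, and SPRY2 had 0.96, against 0.84. The fitted differences from control ran from -0.14 ± 0.25 for DUSP6 to 0.23 ± 0.13 for DUSP5, and their median was 0.00 over the members and -0.02 over all genes. No member passed and none had an unadjusted p under 0.05. The corresponding shares of all genes were 0% and 7.06%. Against its vehicle ethanol, an array of the other set, estradiol differed by -0.91 ± 0.21 for DUSP1, -0.74 ± 0.17 for DUSP5, -0.65 ± 0.21 for SPRY2 and -0.52 ± 0.18 for IER3, with adjusted p-values of 0.430, 0.430, 0.523 and 0.543. No member passed, against 0.0101% of all genes, and 4 of 10 members against 8.31% of all genes had an unadjusted p under 0.05. This comparison rests on the same ethanol array as the comparison of ethanol with control. EGR1 passed in it, at -2.67 ± 0.23 (adjusted p = 0.0378), a call that held in 3 of 12 alternatives. It was lost with any of the 4 duplicated arrays or the E2-BSA+ICI array left out, with array medians subtracted, with quantile normalization, with group means and without the set term.

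With ICI, all 10 members had a fitted difference above 0, but so did 81.7% of all genes. IER3 differed by 0.33 ± 0.10, SPRY2 by 0.35 ± 0.12, DUSP1 by 0.30 ± 0.12 and PHLDA1 by 0.28 ± 0.11, with adjusted p-values of 0.279, 0.279, 0.297 and 0.289. IER3 had -0.03 with E2-BSA+ICI, against -0.35 in E2-BSA array 2, and -0.21 with ICI, against -0.56 in control array 2. No member passed and 0% of all genes did, and 4 of 10 members against 16.3% of all genes had an unadjusted p under 0.05. The median difference was 0.18 over the members and 0.14 over all genes, and with array medians subtracted 6 of the 10 members lay above 0. The E2-BSA difference with ICI was set against that without it, in a fit that left 1 residual degree of freedom. No member passed in this test, where 0% of all genes did, and the estimates ran from -0.28 ± 0.20 for SPRED1 to 0.30 ± 0.21 for DUSP1.

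With G15, DUSP6 was the member that stood out, and it did so when G15 was given with E2-BSA. The E2-BSA+G15 array stood apart within the set of 8 in other measures too: its poly-A mean was 0.10, against -0.29 or lower in the other 7, its standard deviation of 0.32 was the highest of the 8, and 145 genes lay more than 2-fold under control array 2. The part of these in the DUSP6 values was not tested. DUSP6 had -1.11 with E2-BSA+G15, against -0.27 in E2-BSA array 2, and -0.36 with G15, against -0.20 in control array 2. All 3 probe sets lay lowest in the E2-BSA+G15 array, at -0.43 for 208891_at, -1.23 for 208892_s_at and -1.67 for 208893_s_at, and 208892_s_at was also low with G15 alone, at -0.84. The fitted G15 difference of DUSP6 was -0.50 ± 0.19 (adjusted p = 0.482), and -0.13 without the E2-BSA+G15 array. DUSP5 differed by 0.30 ± 0.10 and IER3 by 0.27 ± 0.10 (both 0.482). No member passed and 0% of all genes did, and 3 of 10 members against 10.3% of all genes had an unadjusted p under 0.05. The median difference was 0.21 over the members and 0.10 over all genes. The E2-BSA difference of DUSP6 was lower with G15 than without by -0.71 ± 0.19 in a fit with this interaction. That fit left 1 residual degree of freedom and passes exactly through the G15 and E2-BSA+G15 arrays, so this error holds no spread of theirs. No member passed in that test, in which 0.0101% of all genes passed and 2045 had an unadjusted p under 0.05. DUSP4, the other phosphatase whose lowest value was that of the E2-BSA+G15 array, had -0.30, and its difference was -0.40 ± 0.20.

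**Figure D5:**
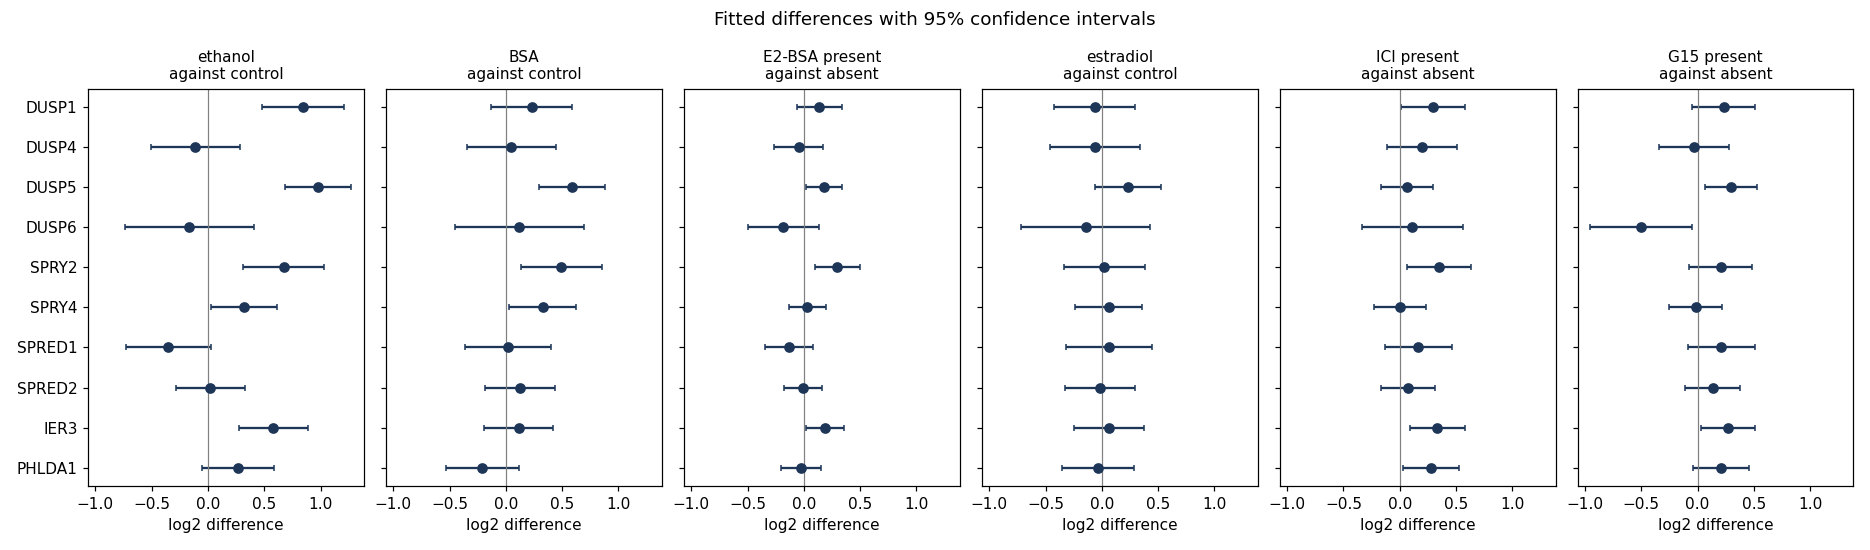
Fitted log2 differences of the 10 genes are plotted with 95% confidence intervals for 6 comparisons of the additive fit. Ethanol gives the widest departures from 0, with DUSP5 at 0.98 and DUSP1 at 0.84. Estradiol runs from -0.14 for DUSP6 to 0.23 for DUSP5, with every interval including 0, and DUSP6 is at -0.50 with G15.

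Of 13 differences between single arrays, each against the control, the antagonist or the E2-BSA array of its own set, none reached 2-fold, a log2 difference of 1, for any of the 10 genes. Over all pairs of the set of 8, DUSP6 alone of the members spanned more than 2-fold (1.09, from BSA as its highest array to E2-BSA+G15 as its lowest), as did 3.73% of all genes. Against control array 2, the largest were 0.98 for DUSP5 with ethanol, where 0.298% of all genes passed 2-fold, and -0.91 for DUSP6 with E2-BSA+G15, where 0.738% did. The highest with BSA was 0.59 for DUSP5 (0.475% of all genes past 2-fold), with E2-BSA+ICI 0.60 for SPRY2 (0.172%) and with E2-BSA 0.25 for SPRY2 (0%). With ICI it was 0.35 for IER3 (0.137%) and with G15 it was 0.34 for IER3 (0.233%). For E2-BSA+ICI against ICI the highest was 0.36 for DUSP1 (0.00506%), and against E2-BSA array 2 it was 0.45 for DUSP1 (0.121%). For E2-BSA+G15 the lowest was DUSP6 on both counts, at -0.75 against G15 (1.35%) and -0.84 against E2-BSA array 2 (0.556%). In the set of 3, SPRY2 at 0.50 was the highest of E2-BSA array 1 against control array 1 (0.511%), and DUSP5 at 0.24 that of estradiol against control array 1 (0.223%).

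Likeness between genes was measured as the root mean square difference of their values over the 11 arrays, each gene centred on its mean, for the 3 members with the largest spread over the set of 8. GINM1 was nearest to DUSP6, at 0.07 (log2), followed by USP16 at 0.12 and LTBP1 at 0.13, where DUSP6 itself had a standard deviation of 0.53. SNAI3, TXNL1 and AOC3 were nearest to DUSP5, at 0.13 to 0.14 with a standard deviation of 0.28, and MYLIP, HEXIM1 and SHANK2-AS2 were nearest to DUSP1, at 0.11 to 0.12 with one of 0.26. The members themselves were left out of this search, so it does not show how alike they are to each other.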

How the data were processed

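The deposited table held log2 values of 54675 probe sets on 11 arrays. Per the labels' protocols, total RNA was column-isolated and biotin-labelled by the Affymetrix protocol. The authors' summary method, normalization and log base are not given in the sources used here, and the base was taken as 2. In 27864 probe sets (51.0%) the values nearest 0 mirrored each other within 1e-05, which shows centring per probe set, so no level, detection call or filter on dim probes could be had.

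Probe sets were named from the platform's annotation: 41091 had 1 gene symbol, 1801 several and 11721 none, apart from 62 Affymetrix controls. Gene ids of 41037 were in the current gene table. Values were averaged per gene (19775 genes). The report names the 10 members, genes of 3 ERK lists, and the 3 nearest genes of the 3 most variable members.

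Groups were taken from the labels. limma 3.58.1 (R 4.3.3), with a trend in eBayes, was fitted with additive terms for each treatment and the spike-in set, leaving 3 residual degrees of freedom, and was tested on simulated data. Prior degrees of freedom were 4.84. The interaction tests added both E2-BSA-by-antagonist terms and left 1 residual degree of freedom. They fit the antagonist and combination arrays exactly, so their standard errors rest on the duplicated groups and the prior. Alternatives were other normalizations, summaries, filters and fits, and leaving out arrays. For the duplicated groups the replicate number is the set, so the set term is the replicate block. The members, lists and set term were chosen with earlier results of these data known.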

Additional observations from a re-analysis of the deposited data

How the results depend on the processing

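Over the alternatives, 1293 recomputed values of the 10 genes were obtained. Of these, 124 had the other sign and 19 changed the call, 16 of them in the comparison of the sets. With quantile normalization 1 member passed in ethanol against control, DUSP5 (1.18, adjusted p = 0.0218, with a range of 0.0218 to 0.9999 over its alternatives). Under it 3 members passed 2-fold in the single-array differences computed within the set of 8, DUSP5, SPRY2 and IER3, all against control array 2. The share of all genes past 2-fold under quantile normalization is not given here, so this count has no background to be read against. With probe sets in place of genes 1 member, PHLDA1, passed in BSA against control and 1 in E2-BSA against BSA. Leaving out a duplicated array left 4 to 7 of the members higher in the set of 3 (8 with all arrays), and 0 in each treatment comparison. Of all genes 1332 to 3610 then passed between the sets, against 4772 with all arrays. Without the replicate block, that is, without the set term, 0 members passed in any treatment comparison, and a replicate block over the 4 control and E2-BSA arrays alone gave 0 as well. Genes called in ethanol against control numbered 17, with 41 under quantile normalization, 24 without a trend, 10 without probe sets ending in _x_at or _s_at, 9 without the E2-BSA+ICI array, and 0 without the block, without control array 2 or without E2-BSA array 2. In BSA against control 70 were called, with 30 without the E2-BSA+ICI array and 5, 4 and 5 without the block, control array 2 and E2-BSA array 2. In E2-BSA against BSA the 61 became 0 under each of these 3 and 25 without the E2-BSA+ICI array. The 2 of estradiol against ethanol became 0 under 9 alternatives. Signal over background could not be judged from centred values.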
